A study of Caenorhabditis elegans with 205 samples.

Results

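tmc-1, tmc-2 and pezo-1 encode putative force-gated cation channels of the nematode Caenorhabditis elegans. They were found by symbol in a table of read counts for sorted neurons and are 3 of its 46927 genes. TMC proteins are membrane channels with many membrane-spanning segments. Their mammalian relatives form the pore of the transduction channel of inner ear hair cells, together with a calcium-binding subunit and the small membrane protein TMIE. Piezo proteins are very large channels that open when the membrane is stretched, and pezo-1 is the Piezo gene of the worm. In worms, tmc-1 has been linked to touch and chemical sensing and to the excitability of neurons and muscles, and pezo-1 to feeding and ovulation.

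The data are RNA-seq libraries of 53 neuron classes. Neurons of a class were isolated from untreated worms by fluorescence-activated cell sorting and sequenced in bulk, with 2 to 6 libraries for each class. Classes carry their anatomical abbreviations (AVG, OLQ), and libraries are named by the class and the number in their title (AVGr43). The labels used here do not give strain, age or reporter, and do not say whether libraries of a class came from separate cultures, so p-values measure only the spread between these libraries.

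The genes lie apart in the genome (WBcel235 build). tmc-1 (WBGene00020490) spans chromosome X from 1162207 to 1177174 on the plus strand, with 4493 bases of summed exons. tmc-2 (WBGene00015177) spans chromosome X from 9303722 to 9310443 on the plus strand, with 3982 bases of exons. pezo-1 (WBGene00007505) spans chromosome IV from 9343359 to 9366511 on the minus strand, with 8038 bases of exons and 12 annotated transcripts. Counts were summed over each whole gene, so transcripts of a gene were not separated. A pair of short noncoding RNAs, C10C5.10 and C10C5.11, lie inside pezo-1 and drew 19 and 101 counts over all libraries, against 161651 for pezo-1.

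Total counts ran from 798303 to 24647021 per library, with a median of 4692492, and ribosomal RNA genes took 9.77% to 79.2% of them. Of the 53 classes, 46 (180 libraries) have labels that name the library kit in a description. The other 7 classes (25 libraries: CEP, DVB, HSN, PVP, PVQ, RME and SIA) do not, so class and label set cannot be told apart. Class markers mostly led in their own class: gcy-8, a guanylate cyclase of the AFD thermosensory neuron, averaged 1489 ± 567 CPM over the 5 AFD libraries (SD) and did not pass 3.22 CPM as a mean elsewhere. CPM are counts per 1000000 of the library size, corrected by TMM, a trimmed mean of ratios between libraries. The marker furthest from the lead was ser-2 in OLL, at 106.5 ± 57.3 CPM (n = 2) and rank 6 among classes, and markers shared by several classes (unc-25, tph-1, mec-3, mec-17 and mec-18) ranked 2 to 5 in some of them. AVG and DVC had no marker on the list. Genes of other tissues were present in every class, at a median of 3875 CPM per library over 39 genes of 8 tissue lists. In HSN the 6 intestine genes reached 35358 and 25446 CPM in HSNr237 and HSNr239 and 883 CPM in HSNr238, against 643 CPM in the median class.

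All 3 genes differed among the classes by edgeR's quasi-likelihood F-test, as did 95.6% of the genes tested. The adjusted p was 7.69e-38 for tmc-1, 7.80e-14 for tmc-2 and 1.47e-19 for pezo-1 over 20427 genes. Class accounted for 0.725 of the variance of log2(CPM + 1) among libraries for tmc-1, 0.555 for tmc-2 and 0.664 for pezo-1. These shares are not corrected for the number of class means fitted, which raises them even where classes do not differ. tmc-1 ranged widely and peaked in AVG, tmc-2 was low in nearly all classes and peaked in AFD, and pezo-1 was present in every library. The median coefficient of variation within a class was 0.24 for pezo-1, 0.48 for tmc-1 and 0.67 for tmc-2.

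**Figure D1:**
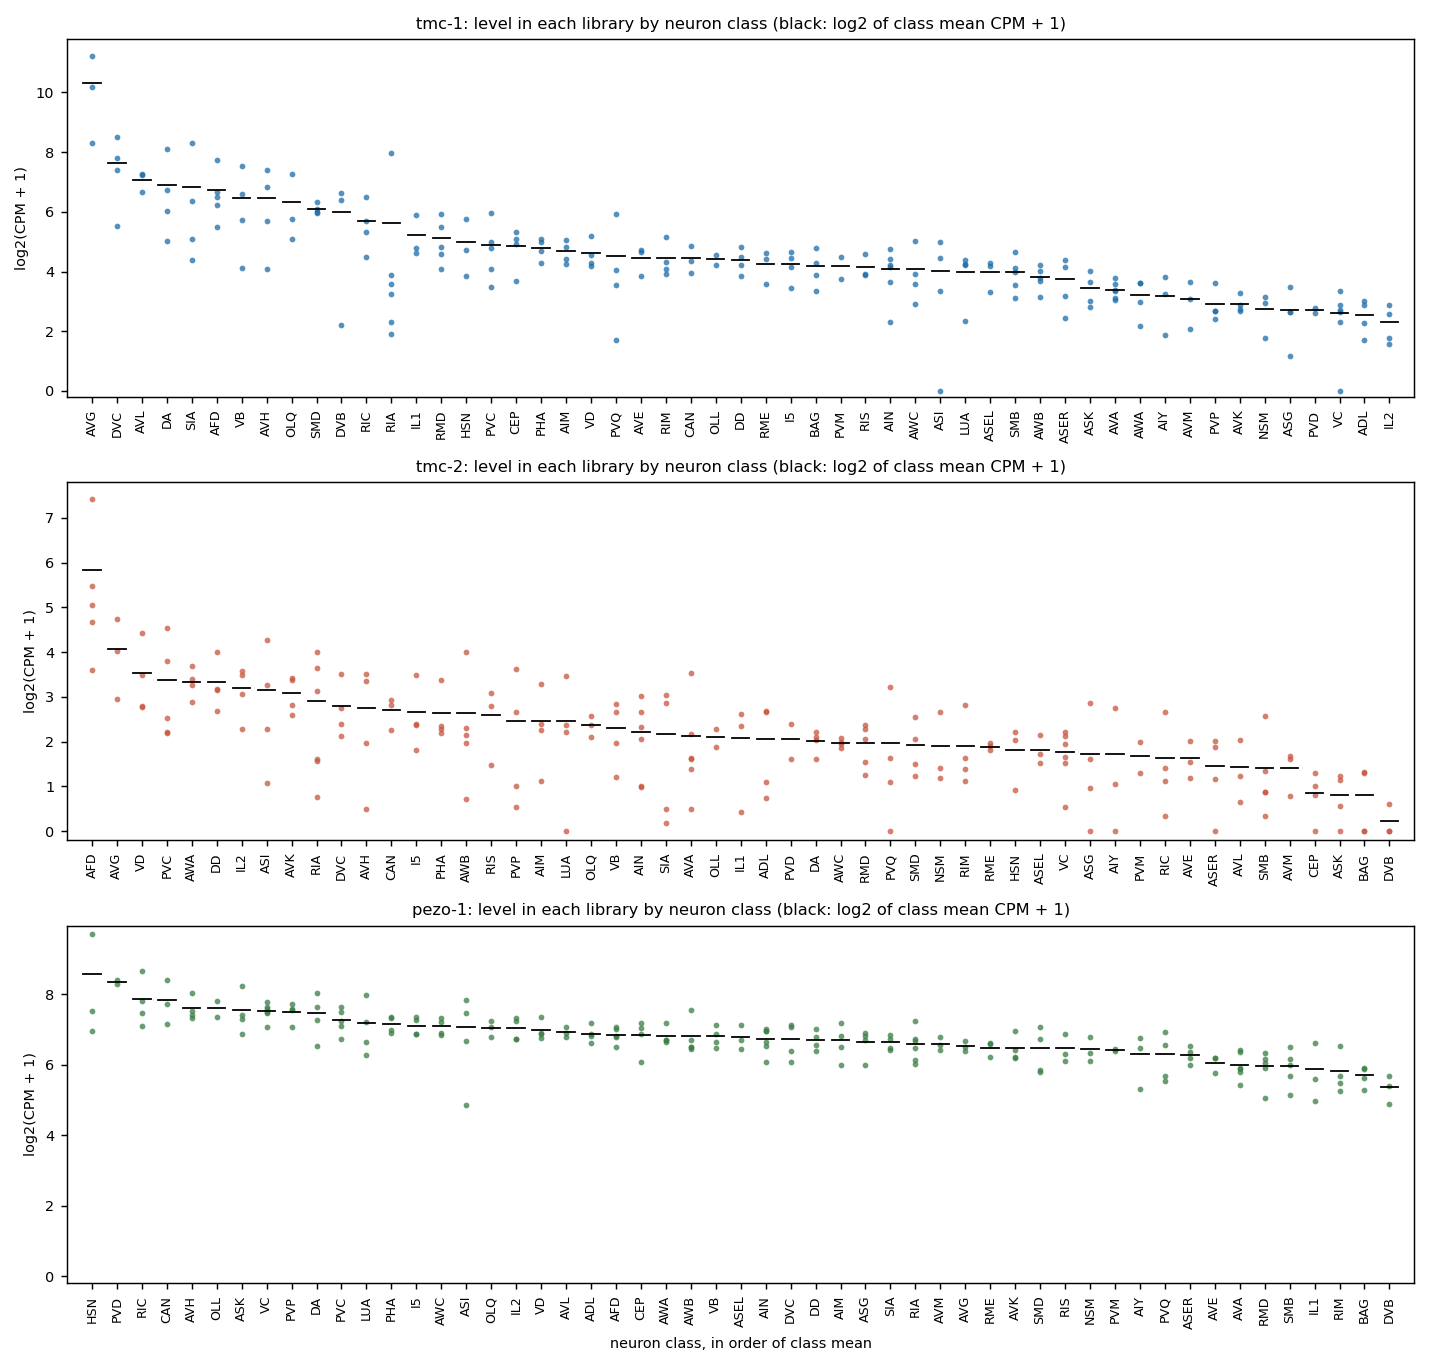
Level of tmc-1 (top), tmc-2 (middle) and pezo-1 (bottom) in each library, as log2(CPM + 1), by neuron class in order of the class mean. Points are libraries and black bars mark the class mean; the AVG libraries head the tmc-1 panel at 313 to 2373 CPM, the AFD libraries the tmc-2 panel at 11.1 to 170.5 CPM, and pezo-1 stays between 27.6 and 831 CPM in every library.

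tmc-1 was highest in AVG, an interneuron that pioneers the ventral nerve cord. The AVG libraries had 313, 1151 and 2373 CPM, against a median class mean of 19.9 CPM. Only 2 libraries of other classes, in 2 classes, lay above the lowest AVG library. The AVG mean of 1279 ± 1036 CPM (SD, n = 3) was 64.1 times the median class and 6.44 times the next class. Against the mean of the other classes, AVG was higher by 5.91 on the log2 scale (approximate standard error 0.27, adjusted p = 8.00e-47), in a comparison that called 5.66% of all genes higher. Without AVGr45, the highest library, the AVG mean was 732 CPM and AVG was still the top class.

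The AVG libraries differed from each other in more than tmc-1. Summed genes of other tissues had 7098 CPM in AVGr43, 5005 in AVGr44 and 2286 in AVGr45, the reverse of their order by tmc-1. Each of the 8 lists was at or above 5.36 CPM in every AVG library, and of the glia markers delm-1 was at 0 in all of them. The part of this difference in the spread of tmc-1 was not tested. pezo-1 held steady across the same libraries, at 82.96, 89.3 and 101 CPM. tmc-2 had 6.73, 15.2 and 25.6 CPM in AVGr43, AVGr44 and AVGr45. In bulk libraries, fewer cells of the class and less RNA per cell cannot be told apart.

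DVC, an interneuron of the tail, was the next class for tmc-1. Its libraries had 45.5, 167.6, 223.2 and 358.8 CPM, and DVC was higher than the mean of the other classes by 3.17 on the log2 scale (standard error 0.34, adjusted p = 2.52e-15, with 14.7% of all genes called higher). Of the calls in DVC, 79.14% were higher with TMM and 67.66% with relative log expression factors. Genes of other tissues summed to 7092 and 3651 CPM in DVCr164 and DVCr165, the DVC libraries with less tmc-1, and to 1096 and 1186 CPM in DVCr166 and DVCr167, and their part in the spread was not tested. AVL, a motor neuron of the defecation cycle, followed with 152.3, 99.6 and 149.5 CPM. SMD, a head motor neuron class, had the tightest libraries among the 10 leading classes, at 61.3 to 79.2 CPM. OLQ, a nose touch neuron of the lips, had 53.7, 33.2 and 152.7 CPM of tmc-1 and was the highest of the listed mechanosensory classes.

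In all, tmc-1 was called higher in 12 classes and lower in 7 at an adjusted p under 0.05. Over every pairing of a gene with a class, 11.4% were called higher and 3.06% lower. The classes called higher were AVG, DVC, AVL, DA, SIA, AFD, VB, AVH, OLQ, SMD, DVB and RIA, and those called lower were IL2, ADL, VC, ASG, NSM, PVP and AVK. RIA rests on a single library: RIAr74 had 248 CPM and the other 5 had 2.80 to 13.7 CPM, with a mean of 8.02 CPM without it. limma-voom, another test, did not call RIA (-0.34 on the log2 scale, the opposite sign) or DVB higher, and gave 10 classes higher and 4 lower. With all other libraries taken as a single group, only AVG was called higher and only VC lower. Leave-out fits were made with limma-voom, each without the library at 1 position (1 to 6, in label order) of every class that has it. AVG, DVC, AVL, DA, AFD, SMD and VC were called in every such fit that dropped a library of theirs. SIA, AVH and ADL lost the call in 1 of 4 fits, and OLQ lost it without OLQr221 (adjusted p = 0.31). DVB kept the call in 1 of 3 fits, and VB (adjusted p up to 0.59), IL2 and PVP in 1 of 4. ASG, AVK and NSM kept it in none, and limma-voom did not call them with all libraries.

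tmc-1 was low in a few classes. IL2, a chemosensory class of the lips, had 5.00, 6.41, 1.96 and 2.41 CPM, the lowest class mean. VC, a motor neuron class of the vulva, had 0 counts in VCr140 and 3.92 to 9.21 CPM in the other 5 libraries. The touch neuron PVD had 5.84 and 5.12 CPM. In all, 2 libraries had no tmc-1 count, ASIr154 and VCr140, where a count of 0 allows up to 3 counts, or 3.32 CPM in ASIr154 and 1.35 CPM in VCr140.

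tmc-2, the paralogue, was low in most of the neurons sampled. Its median class mean was 3.204 CPM, 11 libraries had no count and 45 had at most 3 counts. AFD, the main thermosensory neuron, was its highest class, with 170.5, 11.1, 24.4, 32.2 and 43.8 CPM in AFDr35 to AFDr39. AFDr35 stood far above the other AFD libraries, and 12 libraries of other classes lay above the lowest AFD library. AFD was higher than the mean of the other classes by 4.06 on the log2 scale (standard error 0.33, adjusted p = 8.00e-24, with 20.9% of all genes called higher). Without AFDr35 the AFD mean was 27.9 CPM, above the next class, AVG, at 15.8 ± 9.47 CPM.

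AFD also carried tmc-1, at 101, 43.9, 88.4, 73.8 and 212.6 CPM in AFDr35 to AFDr39. AFDr35 did not stand apart for tmc-1 or for pezo-1, which had 127.6 CPM there and 89.5 to 134.2 CPM in the other AFD libraries. gcy-8 was highest in that library, at 2073 CPM against 567 to 1789 CPM in the others. Other-tissue genes summed to 1288 CPM in AFDr35, the lowest of the AFD libraries, and the part of either measure in the tmc-2 value was not tested.

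tmc-2 was called higher in 5 of the 53 classes, AFD, AVG, VD, PVC and AWA, and lower in DVB, ASK and CEP. Over every pairing of a gene with a class, 11.4% were called higher and 3.06% lower, so the number called higher was not unusual. In the leave-out fits AFD and DVB kept the call each time. AWA kept it in 0 of 4 fits (adjusted p 0.057 to 0.26), CEP in 1 of 4, ASK in 2 of 4, AVG in 1 of 3 (0.38 without AVGr45), PVC in 3 of 5 and VD in 3 of 4. AWA, an olfactory neuron, had 6.34 to 11.9 CPM, and VD, an inhibitory motor neuron class, had 5.97, 20.6, 10.2 and 5.85 CPM. Genes of other tissues summed to 5428, 8078, 7282 and 5919 CPM in the same VD libraries. PVC had its highest tmc-2 counts in PVCr215 and PVCr216. Other-tissue genes summed to 6167 and 7044 CPM there and to 3615 to 5842 CPM in the other PVC libraries. In AFD and AVG the library with the most tmc-2 had the lowest sum. In AWA the library with the highest sum had the least tmc-2. The part of other tissues in these calls was not tested. DVB, a motor neuron of the tail, had 2 counts of tmc-2 in DVBr266 and none in the other libraries (adjusted p = 0.0065). There 9.74% of all genes were called lower, and the median fold change of all genes was -0.74 on the log2 scale. Of the calls in DVB, 57.16% were higher with TMM and 43.49% with relative log expression factors. The same DVB libraries had 3.59, 83.9 and 98.8 CPM of tmc-1. DVB is among the classes whose labels do not name the kit.

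Per kilobase of exon, tmc-1 exceeded tmc-2 in most classes. Over the libraries with at least 10 counts summed over both genes, tmc-1 was higher in 89.8% and tmc-2 in the other 20, and the median log2 ratio of tmc-1 to tmc-2 was 2.23. The class mean ratio favoured tmc-1 in 50 classes and tmc-2 in IL2, AWA and AVK. In IL2 the log2 ratio was -0.72, -0.85, -2.61 and -0.83 in the 4 libraries, so tmc-2 was higher in each. In AWA, 1 of 4 libraries had the opposite sign. AVG lay near the other end, with a ratio of 5.90 ± 0.52 (SD, n = 3).

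**Figure D2:**
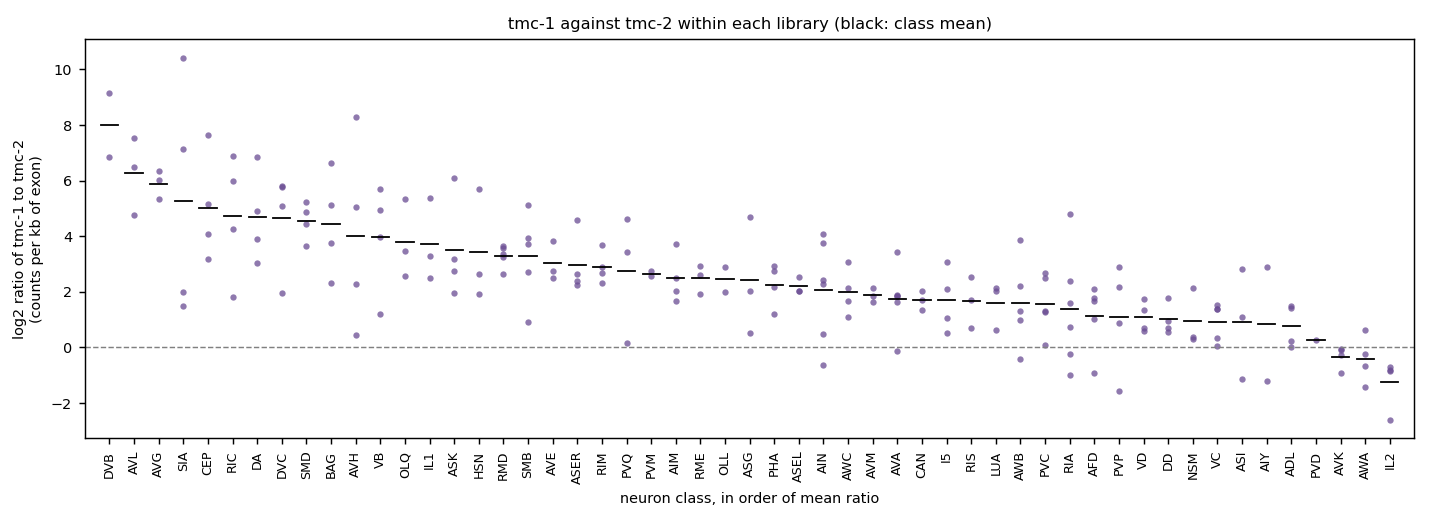
Log2 ratio of tmc-1 to tmc-2 counts per kilobase of exon within each library, by neuron class in order of the mean ratio (points: libraries with at least 10 counts summed over both genes; black bars: class means; dashed line: equal levels). Class means lie above the line except in AVK, AWA and IL2 at the right end.

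pezo-1 was found in every library, from 27.6 to 831 CPM, and its class means ran from 40.2 CPM in DVB to 379 CPM in HSN, around a median class of 108.4 CPM. DVB and HSN are both among the classes whose labels do not name the kit, so class and label set cannot be told apart there. HSN, the motor neuron that drives egg laying, had 122.2, 831.5 and 182.8 CPM, so a single library set its mean of 379 ± 393 CPM. PVD, a branched sensor of harsh touch, had 312 and 339 CPM, and only 3 libraries outside PVD lay above the lower of these. RIC had 399.1, 176.2, 136.7 and 222.03 CPM, and CAN had 334.8, 140.6 and 207.7 CPM.

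HSN was called higher than the mean of the other classes by 1.81 on the log2 scale (standard error 0.23, adjusted p = 1.66e-11, with 12.9% of all genes called higher). Without HSNr238 the HSN mean was 152.5 CPM, PVD became the top class, and HSN was not called in the leave-out fit without it (adjusted p = 0.074). HSNr238 was also the HSN library with the most tph-1, the serotonin synthesis gene that marks HSN, at 339 CPM against 39.5 and 82.7 CPM in HSNr237 and HSNr239. It had the least intestine RNA, as given above. The part of these differences in the pezo-1 value was not tested.

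PVD was called higher by 1.59 on the log2 scale (standard error 0.29, adjusted p = 8.87e-06, with 3.51% of all genes called higher). It was not called in either leave-out fit that dropped a PVD library (adjusted p = 0.12 for both). PVD was the top class for pezo-1 with raw library totals, at 441 CPM, and with relative log expression factors, at 364 CPM. pezo-1 was called higher in 10 classes, HSN, PVD, RIC, CAN, AVH, OLL, ASK, VC, PVP and DA, and lower in DVB, BAG, RIM, IL1, RMD, SMB and AVA. Beside these counts, 11.4% of all pairings of a gene with a class were called higher and 3.06% lower. VC, with 133.7 to 219.2 CPM over 6 libraries, and DVB were called in every leave-out fit that dropped a library of theirs. The call was kept in 1 of 4 fits for DA and RIM, 1 of 3 for IL1, 1 of 2 for OLL, 2 of 6 for AVA, 2 of 4 for ASK, BAG and AVH, 2 of 3 for CAN, 3 of 4 for PVP and RIC, and 4 of 5 for RMD and SMB. DVB was low in each of its libraries, at 41.3, 50.6 and 28.7 CPM, against 37.6 to 59.1 CPM in BAG, a gas-sensing class.

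The order of class means was loose for all 3 genes. None of the 52 steps from a class to the next lower one, for any of them, separated the libraries or exceeded the summed SDs of the neighbouring classes. Sorting puts the closest means side by side, which favours overlap, and other genes were not examined for it. Even AVG and DVC overlapped for tmc-1, since 359 CPM in DVCr167 exceeded 313 CPM in AVGr43.

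Per kilobase, pezo-1 exceeded tmc-1 in 42 classes and tmc-2 in all 53. The 11 classes with more tmc-1 than pezo-1 were AVG, DVC, AVL, DA, SIA, AFD, VB, OLQ, SMD, DVB and IL1. In AVG the means were 285 CPM per kilobase for tmc-1 and 11.3 for pezo-1. In HSN they were 6.88 for tmc-1 and 47.1 for pezo-1, and in PVD 1.22 and 40.5 in the same order of genes. Across the 53 classes the class means of log2(CPM + 1) had a Pearson r of -0.03 between tmc-1 and pezo-1, 0.26 between tmc-1 and tmc-2, and 0.24 between tmc-2 and pezo-1. These values come from shared libraries and describe the pattern only.

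**Figure D3:**
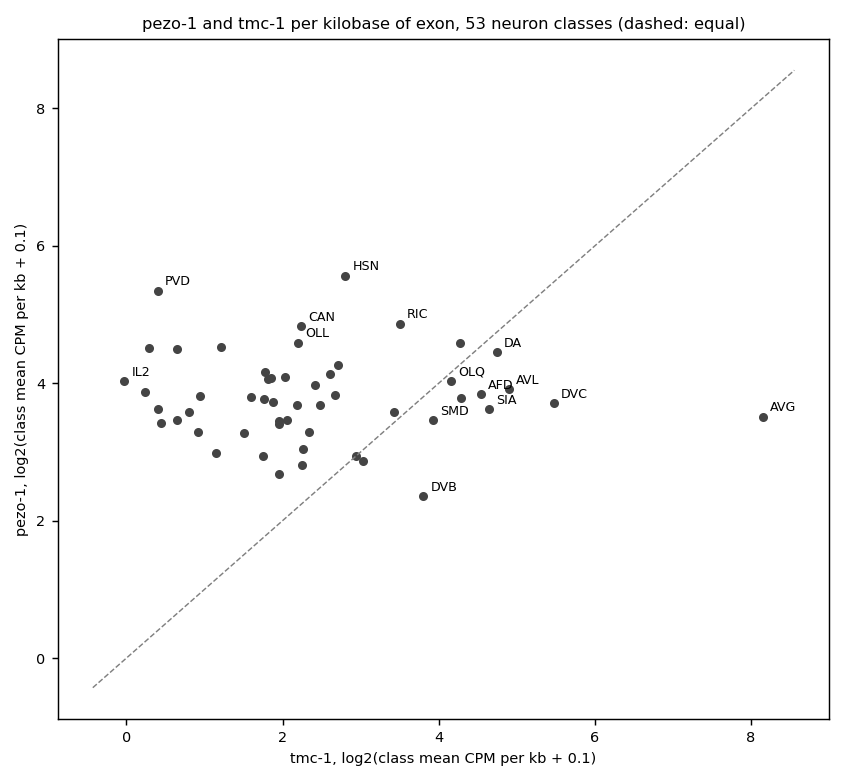
Class means of tmc-1 (x axis) and pezo-1 (y axis) per kilobase of exon, on a log2 scale with 0.1 added, for 53 neuron classes; leading classes are labelled and the dashed line marks equal levels. Most classes lie above the line, AVG lies far to the right at an ordinary pezo-1 level, and PVD lies high with little tmc-1.

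No difference in these genes was called between neurons with a textbook role in touch and the other neurons. The listed mechanosensory classes were AVM, PVM, PVD, OLQ, OLL, IL1 and CEP (19 libraries). Their median class mean was 20.2 CPM of tmc-1, against 19.1 CPM in the other 46 classes. None of the members was called higher or lower, where 3.98% of all genes were called higher and 4.53% lower. The log2 difference was -0.26 for tmc-1 (standard error 0.26, adjusted p = 0.79), -0.65 for tmc-2 (0.32, adjusted p = 0.24) and 0.18 for pezo-1 (0.12, adjusted p = 0.46). The median change over all genes in that comparison was -0.15, and 46.75% of the calls were higher with TMM, against 60.28% with relative log expression factors.

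The touch classes differed among themselves. tmc-1 averaged 79.9 ± 63.9 CPM in OLQ (n = 3) and 7.38 ± 4.10 CPM in AVM (n = 3), a gentle touch neuron. pezo-1 averaged 326 ± 18.7 CPM in PVD (n = 2) and 58.1 ± 34.9 CPM in IL1 (n = 3). In AVM against PVM, an anterior and a posterior gentle touch neuron, tmc-1 had 11.4, 3.21 and 7.51 CPM in AVM and 21.5 and 12.6 CPM in PVM. None of the members was called there (adjusted p = 0.16 for tmc-1), where 7.89% of genes were.

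The 17 ciliated sensory classes had less tmc-1 than the other 36, with a median class mean of 15.3 CPM against 21.03 CPM. The log2 difference was -0.72 (standard error 0.16, adjusted p = 0.000126), and tmc-1 was called lower, as were 12.1% of all genes, while 12.3% were called higher. The ranges of class means overlapped widely, from 3.95 CPM in IL2 to 104.04 CPM in AFD within the ciliated set. tmc-2 and pezo-1 differed by -0.01 and 0.03 (adjusted p = 1 for both).

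The pharyngeal classes I5 and NSM had 17.9 ± 6.14 CPM (n = 4) and 5.66 ± 2.91 CPM (n = 3) of tmc-1. tmc-1 was called lower there by a log2 difference of -1.24 (standard error 0.45, adjusted p = 0.026), as were 10% of all genes, with 18.9% called higher. The call did not hold with limma-voom (adjusted p = 0.086) or with relative log expression factors (adjusted p = 0.066), which raised the median change over all genes to 0.28, against 0.06 with TMM, and the share of calls that were higher to 80.91%, against 65.41%. Of the 4 leave-out fits that dropped a library of I5 or NSM, made here with edgeR, 3 lost the call, with adjusted p between 0.057 and 0.15. pezo-1 averaged 136.5 ± 23.6 CPM in I5 and 85.3 ± 21.5 CPM in NSM, and was not called.

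**Figure D4:**
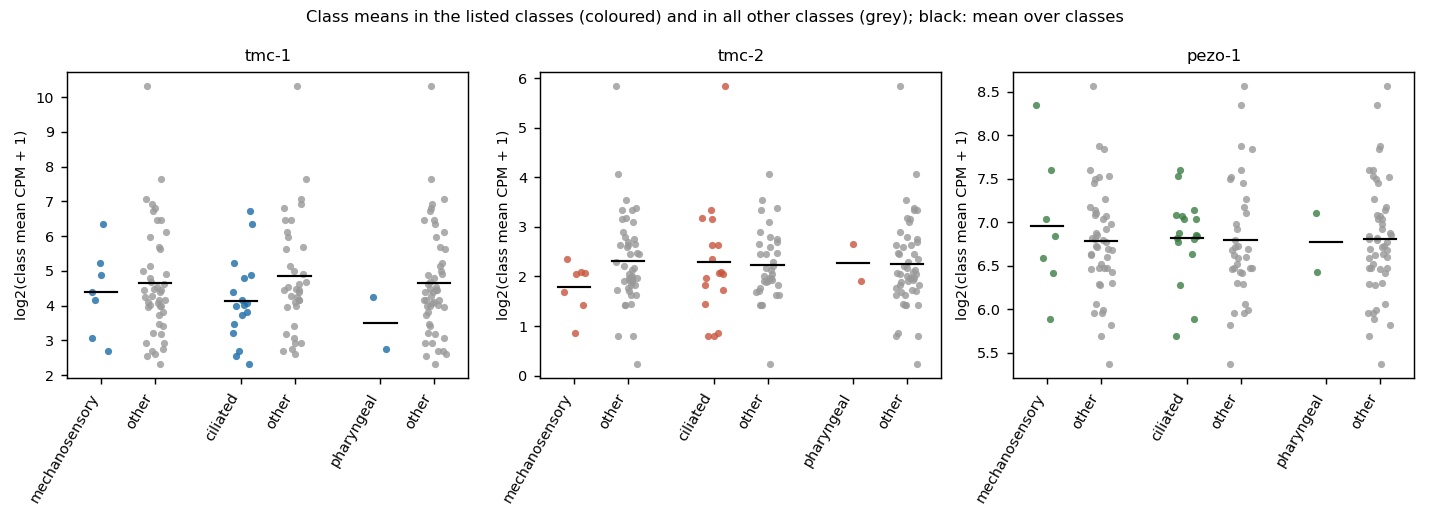
Class means of tmc-1, tmc-2 and pezo-1, as log2(CPM + 1), in the listed mechanosensory, ciliated sensory and pharyngeal classes (coloured) and in all other classes (grey); each point is a class and black bars mark the mean over classes. Each coloured set lies within the range of the other classes, except AFD for tmc-2 at 56.4 CPM and IL2 and ADL for tmc-1 at 3.95 and 4.87 CPM.

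Paired classes gave a single call. IL1, the mechanosensory inner labial class, had 23.8, 57.8 and 26.6 CPM of tmc-1, against 5.00, 6.41, 1.96 and 2.41 CPM in IL2, so the classes did not overlap. The log2 difference was 3.15 (standard error 0.61, adjusted p = 0.032), where 5.83% of genes were called. Leaving out single libraries ended the call in 6 of 7 cases, with adjusted p up to 0.12, though the difference stayed between 2.61 and 3.58. pezo-1 had 30.1, 97.3 and 46.98 CPM in IL1 and 104.4, 151.02, 105.3 and 159.8 CPM in IL2, which did not overlap either. That difference of -1.12 was not called with the libraries of the pair (standard error 0.44, adjusted p = 0.19) and was called with all classes fitted together (adjusted p = 0.041).

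OLQ had 53.7, 33.2 and 152.7 CPM of tmc-1 against 17.6 and 22.7 CPM in OLL, another class of lip neurons. The log2 difference of 2.11 (standard error 0.71) had an unadjusted p of 0.021 and an adjusted p of 0.56. In that pair edgeR called 0% of genes (1227 at an unadjusted p under 0.05), limma-voom called 1 gene and DESeq2 called 1.12% of genes. ASEL and ASER, the left and right taste neurons, had 14.8 ± 5.11 CPM (n = 3) and 12.3 ± 7.23 CPM (n = 4) of tmc-1. pezo-1 averaged 108.4 ± 26.1 CPM in ASEL and 76.7 ± 12.1 CPM in ASER, a log2 difference of 0.70 that was not called (standard error 0.29, adjusted p = 0.15). tmc-2 was below the expression filter in that pair, where 11.3% of genes were called.

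Genes that act with TMC-1 peaked in different classes. tmie-1, the worm TMIE, was highest in AVG at 40.9 ± 21.2 CPM (n = 3) and next in DVC at 27.8 ± 17.1 CPM (n = 4), the leading classes of tmc-1. In AVG it had 21.7, 37.5 and 63.6 CPM in the libraries with 313, 1151 and 2373 CPM of tmc-1. unc-44, an ankyrin that tethers the channel, was abundant in many classes and reached 4807 ± 4431 CPM in AVG. calm-1, the calcium-binding partner, peaked in DA at 19.1 ± 11.2 CPM (n = 4) and had 2.24, 0 and 3.53 CPM in AVG. arrd-6, an arrestin-domain gene, peaked in AFD at 668 ± 128 CPM (n = 5).

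Other genes of mechanosensation were tested in the same contrast. The touch channel list names genes of touch receptor neurons, and the group holds the touch receptors AVM and PVM. Higher levels there were thus built into the choice of list and group. In the touch channel list, 8 of 9 genes were higher in the mechanosensory classes and none was lower, with a median log2 difference of 2.51. They included mec-4 and mec-10, the pore subunits of the gentle touch channel, and mec-7 and mec-12, tubulins of its microtubules. mec-4 averaged 862.3 ± 132.4 CPM in AVM (n = 3), 403.0 ± 152.8 CPM in PVM (n = 2) and 16.6 CPM in AFD, the next class. mec-2 was less confined, with 492 CPM in AFD, and mec-6 was not called. Of 9 other channels of the degenerin family, 3 were higher (unc-8, asic-1 and deg-1) and none was lower. Of 15 TRP channel genes, 4 were higher (trp-4, osm-9, ocr-4 and trpa-2) and none was lower. ocr-4 is also the class marker used for OLQ, and trp-4 is a channel of dopamine neurons, which include CEP. As OLQ and CEP are in the group, the calls of ocr-4 and trp-4 were partly built in as well. Over all genes, 3.98% were called higher and 4.53% lower in that contrast. trp-4, the stretch channel of dopamine neurons, had 815.2 ± 204.6 CPM in CEP (n = 4) and 515 ± 274 CPM in DVC (n = 4). Of the 4 TMC-1 partners, arrd-6 alone was called, and it was lower.

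In the ciliated set, tmc-1 was lower, as were calm-1 (-0.81, adjusted p = 1.43e-07) and tmie-1 (-0.31, adjusted p = 0.040) on the log2 scale, and arrd-6 was higher (1.40, adjusted p = 1.12e-18). unc-44 was not called there. Of the touch channel list, 6 genes were lower and mec-2 was higher in the ciliated classes, and of the TRP genes 5 were higher and 2 lower, where 12.3% of all genes were called higher and 12.1% lower. In the pharyngeal classes unc-44 and arrd-6 were the TMC-1 partners called, and both were lower, where 18.9% of all genes were called higher and 10% lower.

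**Figure D5:**
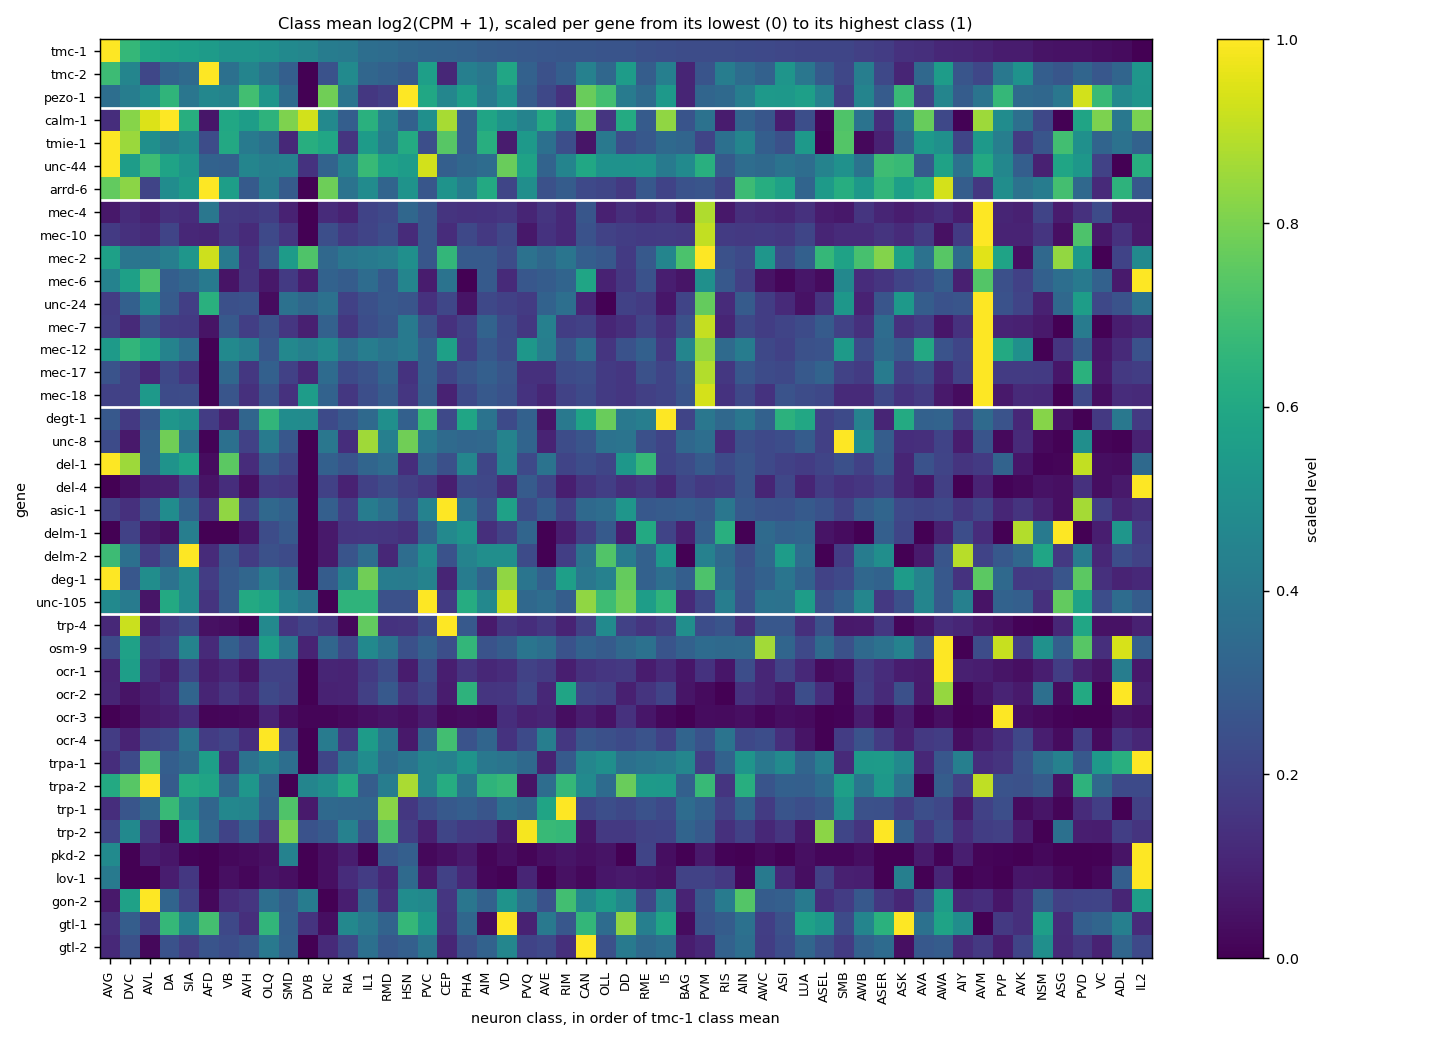
Class means of the 3 members (top rows) and of the listed TMC-1 partners, touch channel genes, degenerin channels and TRP channels, as log2(CPM + 1) scaled for each gene from its lowest class (0) to its highest class (1), with classes in order of tmc-1. AVG is the brightest class for tmc-1, tmie-1, unc-44, del-1 and deg-1, and the touch channel genes are brightest in AVM or PVM, except mec-6, which is brightest in IL2.

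AVG was also the top class of a pair of degenerin channel genes. del-1 averaged 244 ± 236 CPM in AVG (n = 3), with 47.5, 180 and 506 CPM in AVGr43, AVGr44 and AVGr45. deg-1 averaged 178.4 ± 115.0 CPM there. Both followed tmc-1 in their order over these libraries.

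The protein-coding genes whose class means were most like those of tmc-1 were unc-77, C04E6.7, twk-40, frpr-14 and F21A9.2, with r from 0.62 down to 0.58 over 53 classes, among 17207 genes compared. unc-77 encodes a subunit of the sodium leak channel complex and twk-40 a potassium channel. AVG was the top class of 4 of these genes. unc-77 had a mean of 1003 CPM in AVG, and twk-40 had 155.1 CPM in AVG and 107.1 CPM in DVC. For tmc-2 they were K09A9.6, F19C7.4, tmd-2, zif-1 and R151.1, with r from 0.76 to 0.67 and AFD as the top class of all 5. For pezo-1 they were ced-3, K04G2.10, F41G4.7, K01G12.3 and edg-1, with r from 0.57 to 0.56. ced-3, a cell death protease, had 49.7 CPM in OLL and 49.5 CPM in PVD. K04G2.10 and K01G12.3 never exceeded a class mean of 2.71 CPM, F19C7.4 peaked at 5.05 CPM, and correlations over such sparse counts are no finding. All of these genes were picked by r over the same class means. A top class shared with the member follows largely from that choice.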

How the data were processed

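The authors deposited read counts for each gene, as whole numbers in 1 table, in a featureCounts layout per the file headers, with WormBase release WS289 in its name. The submitters' processing notes name STAR 2.7.7a, UMI-tools 1.1.4, Subread 2.0.3 and featureCounts. Strand handling and genome build are not given in the sources used here. The table has 14 further per-sample columns that were not analysed here. Per the labels' protocols, sorted cells went into Trizol and libraries were made with the Tecan SoLo Ovation kit. Gene positions matched the Ensembl WBcel235 annotation for 99.8% of genes.

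CPM used TMM-scaled library sizes. edgeR 4.0.16 (R 4.3.3) fitted class without intercept to 20427 genes kept by filterByExpr, by quasi-likelihood F-tests with Benjamini-Hochberg adjustment over all genes. The dispersion trend was estimated on 1 gene in 10 in order of abundance and interpolated. Pairs of classes were fitted on their own libraries. Approximate standard errors are the log2 fold change over the root of F. Fits were tested on simulated data. No pair of libraries within a class was identical (317 pairs). Genes named are the members, fixed lists, and the 5 genes most like each member by r. The members and lists were chosen with earlier results of these data known. Alternatives were limma-voom 3.58.1, DESeq2 1.42.0, other scalings, other filters and left-out libraries. Intervals on counts were not computed, and the limit of 3 counts covers counting error only.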

Additional observations from a re-analysis of the deposited data

Results flagged for a closer look

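In groups of 4 to 6 libraries, 10 class and gene groups (9.26% of those examined) held a library whose gap to its nearest neighbour was large for the range of the group (Dixon's test at the 95% level, which chance passes in about 5% of groups of normally distributed values). CPM were used here without a log scale, so 5% need not be the rate of chance. tmc-1 was 248 CPM in RIAr74, against 2.80 to 13.7 CPM in the other RIA libraries. It was 11.2 CPM in PVPr3, against 4.35 to 5.45 CPM in the other PVP libraries. LUAr162 was low, at 4.08 CPM against 17.5 to 19.8 CPM.

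tmc-2 was 170.5 CPM in AFDr35, against 11.1 to 43.8 CPM in the other AFD libraries. Lower levels of tmc-2 were set apart in AWBr51 (15.1 CPM, others 0.641 to 3.92), AVAr23 (10.6 CPM, others 0.402 to 3.51), PHAr206 (9.44 CPM, others 3.59 to 4.07) and SMBr195 (4.92 CPM, others 0.253 to 1.52). pezo-1 was 187.6 CPM in AWBr51, against 86.3 to 103 CPM in the other AWB libraries, so that library stood apart for both genes. It was 143.2 CPM in AWAr20, against 98.9 to 103 CPM in the other AWA libraries. Genes of other tissues were also highest of their class in AWBr51 (8580 CPM, others 2619 to 4130), AWAr20 (12234 CPM, others 433 to 3311), PHAr206 (8625 CPM, others 3187 to 4416), LUAr162 (11334 CPM, others 5223 to 6532) and AVAr23 (7431 CPM, others 3240 to 6295). They were lowest of their class in AFDr35 (1288 CPM), and within the range of the other libraries in RIAr74 (3163 CPM), PVPr3 (4834 CPM) and SMBr195 (4758 CPM). Their part in these values was not tested.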

How the results depend on the processing

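No called result changed direction under an alternative, apart from tmc-1 in RIA as given above, whereas some differences that were not called took either sign. Among these were tmc-2 and pezo-1 in the ciliated and pharyngeal classes and in AVM against PVM. tmc-1 in HSN, IL1, RIC and RMD also changed sign, with all other libraries as 1 group. Of 34 results, 24 kept their side of the threshold, or a size within a wide tolerance, under all alternatives run. A level passed if it moved by less than the SD of its class, and a count of classes if it stayed within a set fold. Leaving out 1 library cannot move a class mean by as much as that SD. The levels thus could not fail when single libraries were left out, and only the other scalings could change them. By that rule pezo-1 in HSN passed, at 152.5 to 507 CPM with single libraries left out. The lower tmc-1 level of the pharyngeal classes lost its call with limma-voom (-1.15 on the log2 scale) and with relative log expression factors (-0.98), and ranged from -1.37 to -1.08 in the leave-out fits, of which those at positions 5 and 6 dropped no pharyngeal library. The IL1 and IL2 difference in tmc-1 ranged from 2.61 to 3.58 with single libraries left out. The OLQ and OLL difference in tmc-1 was called with no filter on low counts (2.06, adjusted p = 0.0029), and the IL1 and IL2 difference in pezo-1 with all classes fitted together (-1.16). With all other libraries as 1 group, 1 class was called in each direction for each gene. limma-voom called 4 classes lower for tmc-1. In its leave-out fits limma-voom called 1 to 4 classes lower for tmc-1, 2 to 5 higher for tmc-2, and 5 to 10 higher and 3 to 6 lower for pezo-1. The leave-out fits used fewer libraries, and the cause of these changes was not tested. Over all genes, the calls between IL1 and IL2 were 646, against 2000 with DESeq2, 333 with limma-voom and 1686 with all classes fitted together. For the ciliated classes they were 4978, against 7537 with limma-voom. Between AVM and PVM they were 883, against 1348 with DESeq2, 1888 with no filter and 61 with all classes fitted together, and between ASEL and ASER 1139, against 302 with all classes fitted together. No paired analysis was possible because the numbers in the labels are not shared between classes. The fits of each class without a filter on low counts were not run. Low counts limit tmc-2 most, since 45 libraries held at most 3 counts.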
